A study of Canis lupus familiaris with 33 samples.

Results

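The RAS guanine nucleotide exchange factors RASGRP1, RASGRP2 and RASGRP3, the GTPases RRAS2 and NRAS, and the kinases BRAF and MAPK3 were described in lymph nodes of healthy dogs and of dogs with diffuse large B-cell lymphoma (DLBCL), a tumour of mature B cells. These 7 genes were listed by name, and every probeset that the platform annotation gives to 1 of them alone was taken. The annotation assigned 12 of the 43035 probesets of the Affymetrix Canine Genome 2.0 array to 6 of the genes, namely 2 to RASGRP1, 4 to RASGRP2, 1 to RASGRP3, 2 to RRAS2, 2 to NRAS and 1 to BRAF. No probeset was matched to MAPK3, which is not analysed here.

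Total RNA of 33 lymph node samples was measured. The naïve group held 16 biopsies of DLBCL from dogs of 2.7 to 13.3 years (median 7.7) without previous chemotherapy. The relapsed group held 7 biopsies of DLBCL from dogs of 6.4 to 11.8 years (median 8.7), taken 13 to 672 days after the last treatment, which the labels name as CHOP in 4 dogs and as GS, Dox/Pred or Dox/Cytoxan/Pred in the others, followed by CCNU/L-Aspar/Pred in 2 of the 7. The healthy group held 10 arrays of nodes taken after euthanasia for conditions other than lymphoma, from dogs whose ages are not given. The labels assign 4 healthy arrays to 1 dog, here healthy dog 1, and DLBCL samples 11 (naïve) and 12 (relapsed) to another dog, so that the arrays stood for 22 DLBCL dogs and 7 healthy dogs, and arrays of a dog were averaged. The nodes were whole biopsies with all their cells, so that a lower level in a group can stand for fewer cells of a type or for less RNA per cell, which cannot be told apart here.

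RAS proteins are small GTPases that relay signals from surface receptors when they hold GTP. In lymphocytes RASGRP1 and RASGRP3 are among the exchange factors that load RAS, after diacylglycerol made downstream of the antigen receptor has brought these factors to membranes. Active RAS recruits RAF kinases such as BRAF, which phosphorylate MEK, which in turn phosphorylates the MAP kinases ERK1 (MAPK3) and ERK2. RASGRP1 is best known for its part in T cell receptor signalling and is also found in B cells, RASGRP3 acts in B cells, and RASGRP2 is an exchange factor mainly for RAP1, known from integrin activation in platelets and leukocytes. RRAS2 (TC21) is a RAS-related GTPase that binds antigen receptors of lymphocytes, and NRAS is a classical RAS gene.

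The array medians of the log2 values ran from 6.85 to 6.97, and the 17 tag control probesets without a canine target had means of 2.79 to 4.56. The member probesets had means over all arrays of 7.61 (NRAS probeset 2) to 13.05 (RASGRP2 probeset 1), above these controls. Levels of different probesets were not compared with each other. DLBCL samples 5, 18 and 21 had the lowest median correlations with the other DLBCL arrays, at 0.951, 0.961 and 0.965. In sample 5 the mean of the 7 measured B cell markers was 8.03, against 10.16 to 11.12 in the other DLBCL dogs, and 6 of these 7 markers were lower there than in every other DLBCL array, among them CD79A at 10.88 against 12.72 to 13.37 and MS4A1 (CD20) at 8.51 against 12.57 to 13.86. The seventh, the B cell transcription factor PAX5, lay within the range of the others (6.14 against 5.66 to 6.35). By the methods, every dog used had a diagnosis of DLBCL from histopathology with CD3 and PAX5 as markers. Because most B cell markers were far lower in sample 5, the comparisons of the members between groups are given with and without it. The 11 measured T cell markers had means of 10.21 to 11.17 in healthy dogs and of 7.65 to 9.86 in DLBCL dogs, without overlap. RNA integrity numbers (RIN) were 9.64 ± 0.294 (SD, n = 22, range 8.9 to 10) in DLBCL dogs and 7.11 ± 1.12 (SD, n = 7, range 5.8 to 9.15) in healthy dogs.

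Across the 22 DLBCL and 7 healthy dogs, RASGRP2 was called lower in DLBCL at 2 of its probesets and not at the others. These calls were lost with RIN as a covariate. None of the other members passed the test while sample 5 was included. Of the 12 probesets, 0 were called higher and 2 lower by limma at an adjusted p under 0.05 over all probesets, where 19% of all probesets were called higher and 13.6% lower. The 2 probesets that were called, both of RASGRP2, were also the 2 with an unadjusted p under 0.05, which 18072 of all 43035 probesets had. Without DLBCL sample 5, RASGRP1 (both probesets) and RASGRP3 were also called, both higher in DLBCL, which gave 3 probesets higher and 2 lower, beside 20.1% and 14.6% of all probesets. Without sample 5 the share of members called was thus near that of all probesets in either direction. The median difference of the 6 genes, each read from its probeset of highest mean, was 0.02 on the log2 scale, and that of all genes was 0.06. At none of the 12 probesets were the DLBCL dogs and the healthy dogs without overlap. The share of all probesets without overlap was not counted, so nothing is read from this.

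**Figure D1:**
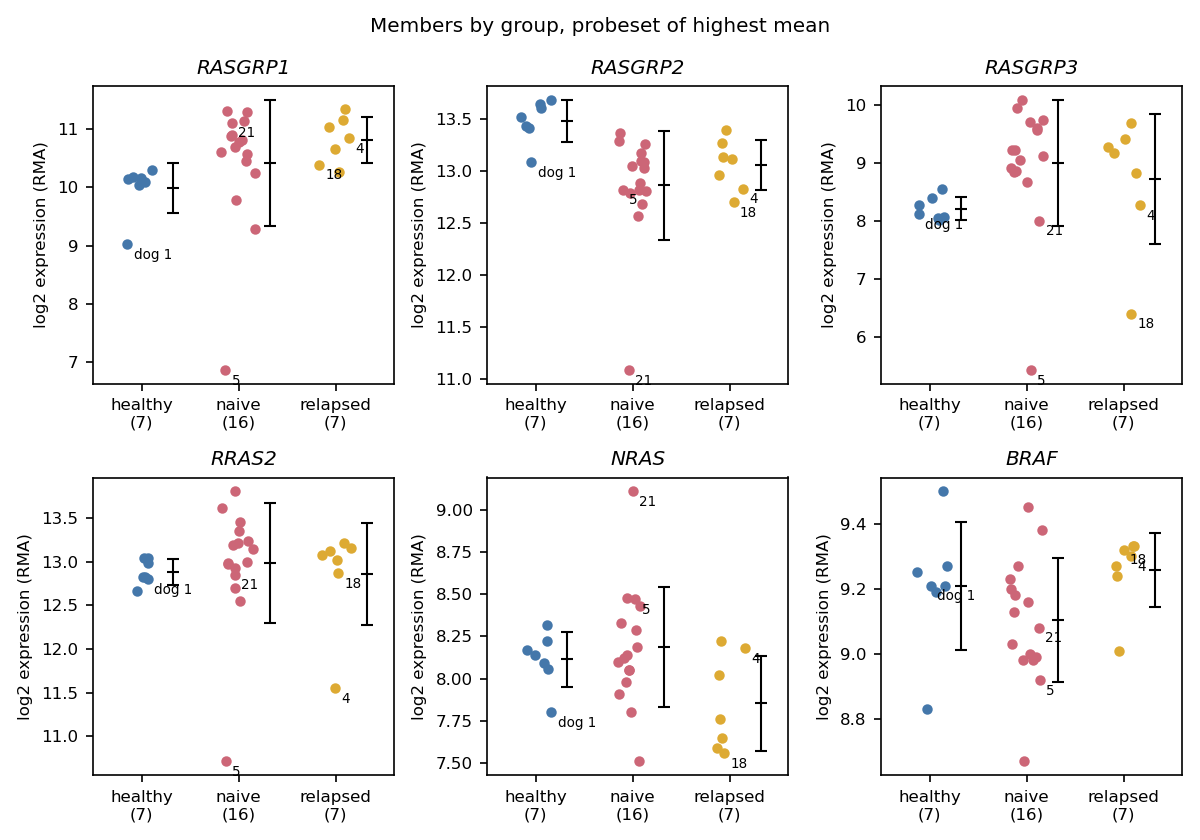
Log2 expression (RMA) of the 6 measured members at their probeset of highest mean, in 7 healthy dogs, 16 naïve and 7 relapsed DLBCL samples. Each point is a dog within its group, bars give mean ± SD, and numbers mark DLBCL samples 4, 5, 18 and 21 and healthy dog 1. Sample 5 is lowest of the DLBCL samples in RASGRP1 (6.87), RASGRP3 (5.43) and RRAS2 (10.71), and sample 21 is lowest in RASGRP2 (11.09).

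RASGRP1, the diacylglycerol-dependent exchange factor of T and B lymphocytes, was higher in most tumours, but not in all. At its first probeset the healthy dogs ranged from 9.03 to 10.30 with a median of 10.14, the naïve samples from 6.87 to 11.31 with a median of 10.73, and the relapsed samples from 10.27 to 11.34 with a median of 10.84. Of the 22 DLBCL dogs, 17 lay above all 7 healthy dogs, and 1, sample 5, lay below all of them. The difference of DLBCL from healthy was 0.54 ± 0.36 (SE, 95% interval -0.21 to 1.28) on the log2 scale, or 1.45-fold, with an adjusted p of 0.27, which did not pass.

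Without sample 5, the lowest DLBCL dog was sample 15 at 9.28, the SD of the DLBCL dogs went from 0.96 to 0.52, and the difference was 0.71 ± 0.21 (SE, 95% interval 0.28 to 1.14), or 1.64-fold, with an adjusted p of 0.0091. The second RASGRP1 probeset gave a difference of 0.45 ± 0.28 (adjusted p 0.24) with sample 5 and of 0.57 ± 0.19 (adjusted p 0.019) without it, and the probesets correlated at r = 0.80 over the 22 dogs. Among the healthy dogs, healthy dog 1 was lowest at 9.03, and its 4 arrays lay between 8.95 and 9.10, while the other 6 dogs began at 10.04. Healthy dog 1 also had the highest mean RIN of the healthy dogs, 9.15, the only one within the DLBCL range of 8.9 to 10. The calls of RASGRP1 without sample 5 were not repeated with RIN as a covariate. Here too, RNA integrity cannot be told apart from the disease. The T cell markers went the other way, with 9 of 11 called lower in DLBCL, among them LCK by -3.00 and CD5 by -3.58 on the log2 scale. Of the 7 B cell markers, 2 were called higher, CD79A by 0.72 and BLK by 1.17. The part of these cell types in the level of RASGRP1 was not tested between the groups.

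RASGRP2, the exchange factor for RAP1, was called lower in DLBCL at its first and second probesets. At the first, the healthy dogs ranged from 13.08 to 13.68 with a median of 13.52. The naïve samples ranged from 11.09 to 13.36 with a median of 12.95, and the relapsed samples from 12.70 to 13.39 with a median of 13.11. Of the 22 DLBCL dogs, 13 lay below all 7 healthy dogs and 0 above them. The difference was -0.57 ± 0.18 (SE, 95% interval -0.93 to -0.20), or 1.48-fold lower, with an adjusted p of 0.015. Leaving out sample 5 gave -0.56 ± 0.18 (adjusted p 0.017).

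The lowest DLBCL dog was sample 21 at 11.09, and without it the difference was -0.48 ± 0.10 (adjusted p 5.2e-04). The second probeset differed by -0.63 ± 0.23 (adjusted p 0.035), and its call was lost when any 1 of healthy dogs 2 to 7 was left out. The third differed by -0.39 ± 0.21 (adjusted p 0.16) and the fourth by -0.25 ± 0.23 (adjusted p 0.42), so that all 4 estimates had the same sign, and the mean of the 4 probesets differed by -0.46 ± 0.20 (adjusted p 0.077), which did not pass. Over the DLBCL dogs, the first probeset correlated with the other 3 at r = 0.78 to 0.96. With RIN as a covariate the difference of the first probeset was -0.13 ± 0.38 (adjusted p 0.92), and the calls over all probesets went from 8178 higher and 5840 lower to 249 higher and 500 lower. RIN overlapped between the groups only from 8.9 to 9.15, and the part of RNA integrity in the difference cannot be told apart from that of the disease.

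RASGRP3, the exchange factor of B cell receptor signalling, had a single probeset and varied widely among the tumours. The healthy dogs lay close together, from 8.02 to 8.56 with a median of 8.12. The naïve samples ranged from 5.43 to 10.10 with a median of 9.17, and the relapsed samples from 6.40 to 9.70 with a median of 9.18. Above all healthy dogs lay 18 of the 22 DLBCL dogs, and below all of them lay 3, which were sample 5 at 5.43, sample 18 at 6.40 and sample 21 at 8.01. The difference was 0.68 ± 0.41 (SE, 95% interval -0.15 to 1.51), or 1.60-fold, with an adjusted p of 0.21. It was 0.85 ± 0.30 (adjusted p 0.027) without sample 5, and 0.98 ± 0.20 (adjusted p 3.3e-04), or 1.97-fold, without samples 5 and 18. Samples 5 and 18 were the lowest DLBCL dogs in RASGRP3 itself. Leaving both out was bound to raise the difference and to narrow its spread, so nothing is read from that call. With RIN as a covariate and all samples kept, the difference of RASGRP3 was 0.21 ± 0.88 (adjusted p 0.95). The fits without sample 5 and without samples 5 and 18 were not repeated with RIN.

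RRAS2, the RAS-related GTPase TC21, had no difference between the groups that passed the test. At its first probeset the healthy dogs ranged from 12.66 to 13.04 with a median of 12.82, the naïve samples from 10.71 to 13.81 with a median of 13.08, and the relapsed samples from 11.55 to 13.21 with a median of 13.08. DLBCL dogs lay on both sides of the healthy range, 12 above it and 3 below it. The difference was 0.06 ± 0.25 (95% interval -0.44 to 0.57, adjusted p 0.87), and without sample 5 it was 0.17 ± 0.17 (95% interval -0.18 to 0.51, adjusted p 0.46). The second probeset, which correlated with the first at r = 0.94 over the DLBCL dogs, differed by 0.47 ± 0.37 (adjusted p 0.35), and by 0.60 ± 0.30 (adjusted p 0.13) without sample 5. Both probesets were lowest in sample 5 (10.71 and 6.87), next lowest in sample 4 (11.55 and 7.78) and highest in sample 20 (13.81 and 12.01).

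NRAS had levels of 7.80 to 8.32 in healthy dogs (median 8.14), 7.51 to 9.11 in naïve samples (median 8.13) and 7.56 to 8.22 in relapsed samples (median 7.76) at its first probeset. The groups overlapped over most of their range, and the difference of DLBCL from healthy was -0.02 ± 0.14 (95% interval -0.30 to 0.27, adjusted p 0.94). At the second probeset it was 0.21 ± 0.13 (95% interval -0.06 to 0.47, adjusted p 0.23). Without sample 5 the differences were -0.03 ± 0.14 (adjusted p 0.88) and 0.18 ± 0.13 (adjusted p 0.27). Sample 21, lowest in RASGRP2, was highest in NRAS at both probesets (9.11 and 8.40).

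BRAF, the kinase directly downstream of RAS, varied little among the tumours. Its levels were 8.83 to 9.50 in healthy dogs (median 9.21), 8.67 to 9.45 in naïve samples (median 9.11) and 9.01 to 9.33 in relapsed samples (median 9.30). The difference of DLBCL from healthy was -0.05 ± 0.08 (95% interval -0.22 to 0.12, adjusted p 0.67), so that the interval left room only for small changes. Without sample 5 it was -0.04 ± 0.08 (adjusted p 0.74).

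**Figure D2:**
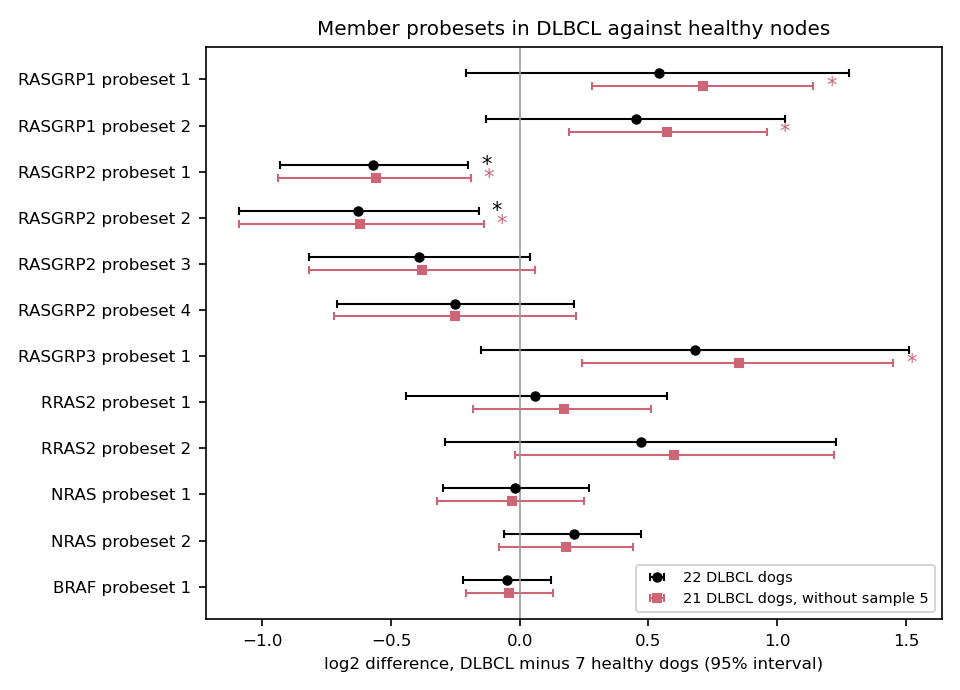
Log2 difference of DLBCL from the 7 healthy dogs at the 12 member probesets with its 95% interval from limma, for 22 DLBCL dogs (circles) and for 21 without sample 5 (squares). Stars mark an adjusted p under 0.05. RASGRP2 probesets 1 and 2 are called lower in both fits, and RASGRP1 (0.71 and 0.57) and RASGRP3 (0.85) are called higher once sample 5 is left out.

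In the fit of 3 groups, the 16 naïve samples gave the same calls against the healthy dogs as all DLBCL dogs did. Of the 12 probesets, 0 were called higher and 2 lower, beside 19.2% and 13.6% of all probesets. RASGRP2 differed by -0.62 ± 0.18 (adjusted p 0.01) at its first and by -0.63 ± 0.24 (adjusted p 0.041) at its second probeset. Without sample 5, 3 were called higher and 2 lower, beside 20.6% and 14.7%, with differences of 0.66 ± 0.22 (adjusted p 0.018) for RASGRP1 and of 1.02 ± 0.30 (adjusted p 0.0082), or 2.03-fold, for RASGRP3.

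The 7 relapsed samples gave 0 calls in either direction against the healthy dogs, where 10.2% of all probesets were called higher and 8.43% lower. An unadjusted p under 0.05 by limma was reached at 0 of the 12 probesets, beside 13460 of all 43035. RASGRP1 differed by 0.82 ± 0.44 (adjusted p 0.20), and 6 of the 7 relapsed samples lay above all healthy dogs. Sample 5 is a naïve sample, but it entered the shared estimate of the spread, and without it the same difference of 0.82 had an SE of 0.25 and an adjusted p of 0.022. That was 1 probeset higher and 0 lower, beside 11.2% and 9.33% of all probesets. RASGRP2 differed by -0.43 ± 0.22 (adjusted p 0.18) with all samples, and by -0.43 ± 0.12 (adjusted p 0.015) when sample 21, also naïve, was left out. RASGRP3 differed by 0.51 ± 0.50 (adjusted p 0.52), by 0.51 ± 0.35 (adjusted p 0.32) without sample 5, and by 0.90 ± 0.26 (adjusted p 0.011) without samples 5 and 18. Sample 18 was the lowest relapsed sample in RASGRP3, so leaving it out was bound to raise this difference, and nothing is read from that call. The naïve and relapsed comparisons share the healthy dogs.

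Relapsed and naïve DLBCL did not differ at any member by limma at an adjusted p under 0.05, as at 0% of all probesets, while 2392 of all probesets had an unadjusted p under 0.05. The 2 member probesets among these were those of NRAS, lower in the relapsed samples by -0.33 ± 0.14 (SE, unadjusted p 0.02, adjusted p 0.88) and -0.27 ± 0.13 (unadjusted p 0.039, adjusted p 0.89). Without sample 5 they were -0.31 ± 0.14 (unadjusted p 0.029, adjusted p 0.79) and -0.25 ± 0.13 (unadjusted p 0.057, adjusted p 0.8). An array day was taken for 18 DLBCL arrays from a list of array files with the study, by matching the sample number in the list to that in the labels. In these 18 arrays, the first of these differences was -0.11 ± 0.19 with the day as a block and -0.20 ± 0.18 without it. The 95% intervals of relapsed minus naïve were -0.37 to 1.16 for RASGRP1, -0.18 to 0.57 for RASGRP2, -1.14 to 0.59 for RASGRP3, -0.65 to 0.40 for RRAS2 and -0.01 to 0.33 for BRAF, which are the differences that 16 and 7 samples left possible. Sample 5, a naïve sample, moved several of them. Without it RASGRP1 went from 0.39 to 0.16 (95% interval -0.29 to 0.60, adjusted p 0.93), RASGRP3 from -0.27 to -0.51 (-1.12 to 0.10, adjusted p 0.81) and RRAS2 from -0.12 to -0.27 (-0.62 to 0.07, adjusted p 0.82). RASGRP2 was at 0.19 in both fits (-0.20 to 0.58 without sample 5), and BRAF went from 0.16 to 0.14 (-0.03 to 0.32). The dog sampled both before treatment and at relapse gave a relapsed minus naïve difference of -0.17 for RASGRP1, 0.08 for RASGRP2, -0.42 for RASGRP3, 0.08 for RRAS2, -0.33 for NRAS and 0.02 for BRAF. For this dog there is no replicate.

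In the order of group means at the probeset of highest mean, RASGRP1 went from healthy (9.99) over naïve (10.42) to relapsed (10.81), RASGRP2 from naïve (12.86) over relapsed (13.05) to healthy (13.48), and RASGRP3 from healthy (8.22) over relapsed (8.73) to naïve (9.0). RRAS2 went from relapsed (12.86) over healthy (12.88) to naïve (12.98), NRAS from relapsed (7.85) over healthy (8.12) to naïve (8.19), and BRAF from naïve (9.10) over healthy (9.21) to relapsed (9.26). With all samples, no neighbours in these orders passed the test of their difference. Only naïve against healthy RASGRP2, the ends of its order, did so. Without sample 5 the naïve means were 10.66 for RASGRP1, 12.86 for RASGRP2, 9.24 for RASGRP3, 13.13 for RRAS2, 8.17 for NRAS and 9.12 for BRAF, which left each order as it was, while RASGRP1 then differed between the neighbours healthy and naïve and between the ends of its order, and RASGRP3 between the ends of its order. Other probesets gave other orders. The second RASGRP1 probeset went from healthy (9.70) over relapsed (10.13) to naïve (10.20), the second RRAS2 probeset from healthy (9.11) over relapsed (9.36) to naïve (9.66), and the second NRAS probeset from healthy (7.48) over relapsed (7.49) to naïve (7.76). The fourth RASGRP2 probeset had relapsed (9.62) and naïve (9.63) in the other order, below healthy (9.86).

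The tumours differed more from each other in RASGRP3 and RRAS2 than the healthy dogs did. The SD over dogs of RASGRP3 was 1.10 in DLBCL and 0.20 in healthy nodes, a ratio of 5.43, and 98.7% of all probesets had a lower ratio. The ratio was 4.65 for the first and 2.97 for the second probeset of RRAS2, 2.22 and 2.47 for RASGRP1, 1.98 to 2.94 for RASGRP2, 2.21 and 0.983 for NRAS and 0.938 for BRAF, while the median over all probesets was 1.36. The second RRAS2 probeset, with an SD of 0.99, had a wider range among the dogs than RASGRP3, from 6.87 to 12.01 against 5.43 to 10.10. Without sample 5 the SD in DLBCL was 0.80 for RASGRP3, 0.45 and 0.81 for the first and second probesets of RRAS2, and 0.52 and 0.48 for those of RASGRP1, which shows how much of the spread came from 1 dog. These ratios are descriptions and were not tested.

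**Figure D3:**
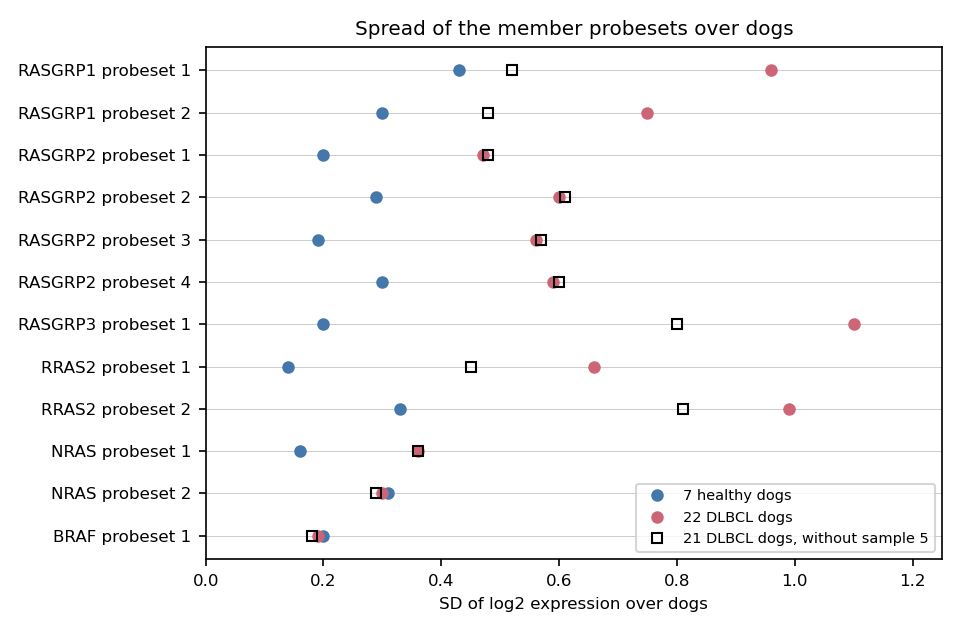
SD of log2 expression over dogs at the 12 member probesets, for 7 healthy dogs, 22 DLBCL dogs and the 21 DLBCL dogs without sample 5. The SD of RASGRP3 is 0.20 in healthy dogs, 1.10 in DLBCL dogs and 0.80 without sample 5, and that of BRAF is 0.20, 0.19 and 0.18.

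The members were set against the mean levels of markers of 5 cell types over the 22 DLBCL dogs, 30 relations in all, with Pearson's r, Spearman's rho and two-sided permutation tests of 100000 resamples. By Pearson's r, 5 relations had an adjusted p under 0.05, and by Spearman's rho 1 did. That one was between RASGRP3 and the mean of 10 macrophage and monocyte markers, with r = -0.70 (permutation p 7.0e-05, adjusted p 0.0021) and rho = -0.66 (permutation p 0.001, adjusted p 0.031). Tumours with more macrophage marker RNA had less RASGRP3. Leaving out the dogs farthest from the median marker level, samples 5 and 23, gave r = -0.67, leaving out sample 5 alone gave r = -0.61 (adjusted p 0.035), and leaving out samples 5 and 18 gave r = -0.57 (adjusted p 0.12). It was -0.73 in the 8 arrays of the first array day and -0.39 in the 7 of the second. With the T cell markers RASGRP3 had r = -0.30 (permutation adjusted p 0.32), which did not pass. That r was -0.20 without sample 5, -0.55 without samples 5 and 18, and -0.79 and 0.23 within the array days.

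The relations of RASGRP3, RRAS2 and RASGRP1 to B cell markers were weaker without sample 5. RASGRP3 had r = 0.74 (permutation adjusted p 0.032) and rho = 0.43 (adjusted p 0.29), and r was 0.20 without samples 5 and 21, the dogs farthest from the median, 0.33 without sample 5 alone and 0.50 without samples 5 and 18. In naïve dogs r was 0.91 (permutation adjusted p 0.02), and 0.54 (adjusted p 0.29) without sample 5, and within the array days it was 0.07 and -0.18. RRAS2 had r = 0.76 (permutation adjusted p 0.042) and rho = 0.33 (adjusted p 0.37), with r = 0.21 without samples 5 and 21 and 0.23 without sample 5. RASGRP1 had r = 0.82 (permutation adjusted p 0.052) and rho = 0.29 (adjusted p 0.39), with r = 0.32 without samples 5 and 21 and 0.15 without sample 5. For RASGRP2 the relation went the other way, from r = 0.28 (permutation adjusted p 0.22) over all dogs to r = 0.66 (adjusted p 0.035) without sample 5, but it was 0.39 without samples 5 and 21, and 0.72 and -0.61 within the array days. The remaining relations that passed by r, of RRAS2 with macrophage markers (r = -0.56, permutation adjusted p 0.032) and of RASGRP3 with platelet markers (r = -0.76, permutation adjusted p 0.019), were -0.36 without samples 5 and 23 and -0.05 without samples 5 and 18.

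RASGRP1 had no relation to the T cell markers that passed among the tumours (r = -0.12, permutation p 0.58, adjusted p 0.69, rho 0.04), and r was -0.13 without samples 20 and 23 and 0.37 and -0.56 within the array days. The relation of RASGRP2 to the platelet markers did not pass either (r = 0.12, permutation p 0.53, adjusted p 0.69), with r = 0.37 without samples 5 and 18. NRAS and BRAF passed with none of the 5 marker lists.

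**Figure D4:**
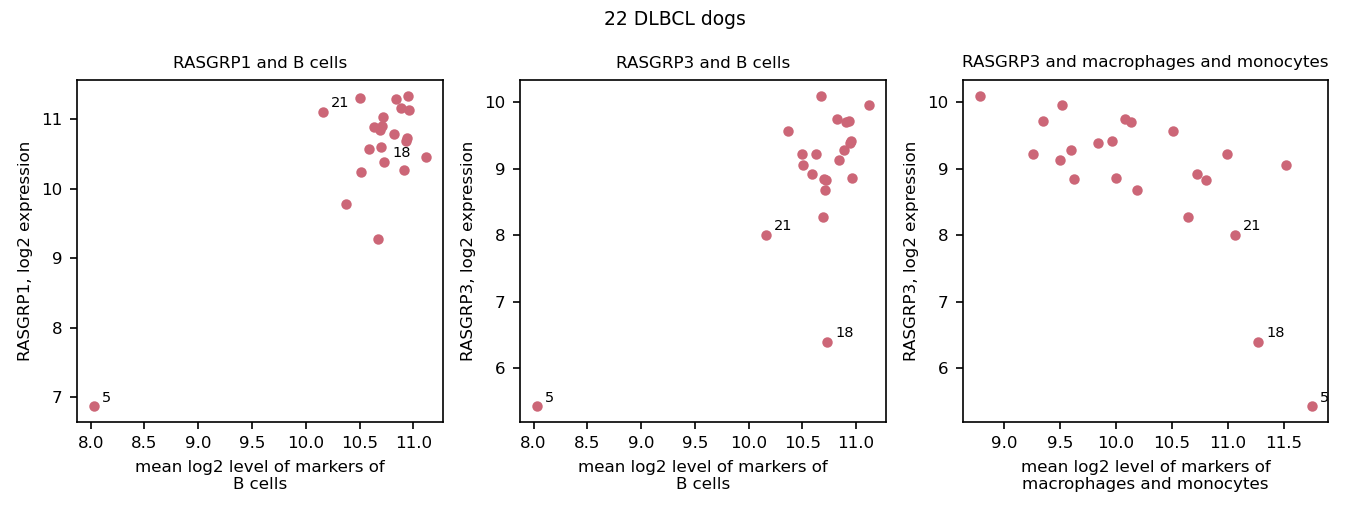
Log2 expression of RASGRP1 and RASGRP3 against the mean log2 level of B cell markers and of RASGRP3 against that of macrophage and monocyte markers, in 22 DLBCL dogs. Each point is a dog, and samples 5, 18 and 21 are numbered. Sample 5 stands alone at a B cell marker mean of 8.03, while RASGRP3 declines along the macrophage axis over the other dogs as well (r = -0.61 without sample 5).

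Among the members themselves, 0 of 15 pairs correlated at an adjusted p under 0.05 by either measure. The smallest permutation p was that of RASGRP3 with RRAS2 (r = 0.71, permutation p 0.0045, adjusted p 0.067, rho 0.50), with r = 0.33 without samples 4 and 5. RASGRP2 and NRAS had r = -0.62 (permutation p 0.0094, adjusted p 0.07, rho -0.27), and r = -0.05 without samples 21 and 23. RASGRP1 and RASGRP3 had r = 0.52 over all dogs and r = -0.50 without samples 5 and 18, so that their relation turned with the samples taken.

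For each member, the 3 genes with the most similar pattern over the 22 DLBCL dogs were taken among 8771 genes of above median level, as a description without a test. For RASGRP1 these were CD79A, the B cell receptor component Igα (r = 0.93), CTSZ, a lysosomal cysteine protease (r = 0.90), and WDFY4 (r = 0.90), with r of 0.72, 0.57 and 0.57 without sample 5. For RASGRP3 they were HDGFL3 (r = 0.93), DHX37 (r = 0.91) and BANK1, a B cell scaffold protein (r = 0.90), with r of 0.63, 0.65 and 0.56 without samples 5 and 18. For RRAS2 they were SP140, a nuclear body protein of lymphocytes (r = 0.88), ZBTB10 (r = 0.85) and DOCK9 (r = 0.84), with r of 0.71, 0.72 and 0.61 without sample 5. RASGRP2 went with CRTAP (r = 0.92), DNAH10 (r = 0.86) and LOC607704 (r = 0.83), which kept r of 0.93, 0.87 and 0.83 without sample 5. NRAS went with APPBP2 (r = 0.82), CDC45, a replication factor (r = 0.78), and DLST, an enzyme of the citric acid cycle (r = 0.77), and BRAF with MPZL1 (r = 0.76), GOLM1 (r = 0.71) and CLEC2B (r = 0.70).

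Around the members, 8 lists held 125 other genes of the pathway, of which 113 were measured. In DLBCL against healthy dogs 17 were called higher, 21 lower and 75 were not called, with a median difference of -0.05, while 19.9% of all genes were called higher and 14.9% lower. Without sample 5, 17 were called higher and 23 lower, and with RIN as a covariate 0 higher and 1 lower. The values of single genes below are from all 22 dogs.

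Of the 14 measured RAS family GTPases, 1 was higher and 4 were lower (median -0.12). HRAS, a classical RAS gene like NRAS, was higher by 0.49 ± 0.13 (adjusted p 0.0034), RRAS, the nearest relative of RRAS2, was lower by -0.58 ± 0.14 (adjusted p 0.0023), and RAP1B, a substrate of RASGRP2, was lower by -0.24 ± 0.06 (adjusted p 0.0019). Of the 17 other exchange factors, 1 was higher and 3 were lower (median -0.12). RASGEF1A was lower by -1.33 ± 0.16 (adjusted p 2.9e-07) and RGL2, an exchange factor for RAL, by -0.83 ± 0.13 (adjusted p 1.1e-05), while RAPGEF1, an exchange factor for RAP1, was higher by 0.65 ± 0.15 (adjusted p 0.0011). Of the 11 genes in the list of GTPase-activating proteins, most of which switch RAS or RAP off, 1 was higher and 4 were lower (median -0.23). RASAL2 was higher by 0.99 ± 0.20 (adjusted p 2.7e-04), while RASAL3 was lower by -1.07 ± 0.23 (adjusted p 5.1e-04) and SIPA1, which acts on RAP1, by -0.66 ± 0.12 (adjusted p 1.1e-04).

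Of the 12 genes of the RAF, MEK and ERK cascade and its scaffolds, 2 were higher and 2 lower (median 0.02). MAP2K1 (MEK1), the kinase phosphorylated by BRAF, was lower by -0.46 ± 0.10 (adjusted p 4.7e-04). PHB (prohibitin) was higher by 0.97 ± 0.12 (adjusted p 7.7e-07), and PEBP1, an inhibitor of RAF, by 0.37 ± 0.10 (adjusted p 0.006). Of the 8 phosphatases and feedback inhibitors of ERK, 0 were higher and 1 lower (median -0.06), which was the ERK phosphatase DUSP6 at -0.30 ± 0.11 (adjusted p 0.033). Of the 18 ERK substrates and target genes, 3 were higher and 2 lower (median 0.00). CCND1 (cyclin D1) was lower by -1.09 ± 0.28 (adjusted p 0.0031), and the transcription factor ELK1 and the kinase MKNK1 were higher by 0.25 ± 0.07 (adjusted p 0.0046) and 0.24 ± 0.07 (adjusted p 0.012).

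Of the 16 genes of the JNK and p38 modules, 3 were higher and 2 lower (median 0.05). MAP2K6, a kinase that activates p38, was higher by 1.23 ± 0.29 (adjusted p 0.0017), and the p38 kinase MAPK13 and the kinase MAP3K1 were lower by -1.04 ± 0.26 (adjusted p 0.0028) and -0.61 ± 0.17 (adjusted p 0.0068). Of the 17 genes of diacylglycerol and receptor input, some of which act upstream of the RASGRP proteins, 6 were higher and 3 lower (median 0.08). The 3 that were lower were PRKCQ, a protein kinase C of T cells, by -3.41 ± 0.31 (adjusted p 2.3e-09), the T cell adaptor LAT by -2.75 ± 0.29 (adjusted p 4.9e-08) and DGKA, which removes diacylglycerol, by -1.03 ± 0.18 (adjusted p 6.5e-05). These fell beside the T cell markers, whose median difference was -2.47, and the part of the T cells in them was not tested.

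**Figure D5:**
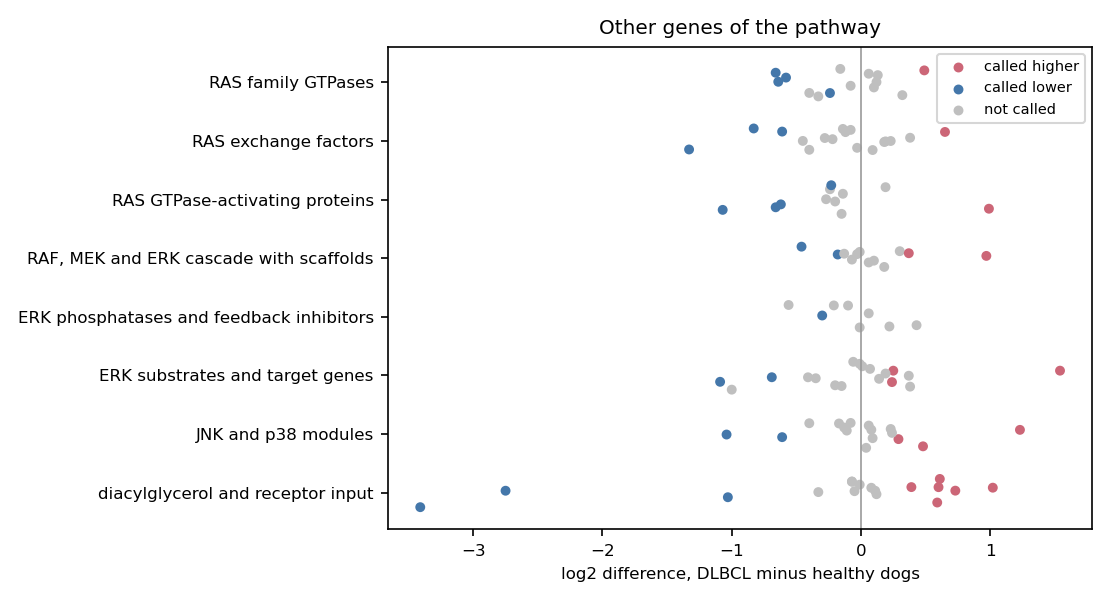
Log2 difference of 22 DLBCL from 7 healthy dogs for the 113 measured genes of 8 lists around the members, 1 point per gene, with colours for genes called higher or lower at an adjusted p under 0.05. PRKCQ (-3.41) and LAT (-2.75) lie far to the left, and points of either call occur in each list but that of ERK phosphatases and feedback inhibitors, which has no gene called higher.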

How the data were processed

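The deposited values are log2 expression, 1 per probeset and array, which the authors made by RMA in the Affymetrix Expression Console before testing in Partek. The version of the Expression Console is not given in the sources used here. RMA puts the arrays on one distribution and compresses changes of dim probesets. Groups, dogs and RIN came from the sample labels. Arrays of a dog were averaged, and in the fit of 3 groups samples 11 and 12 were kept apart. Limma 3.58.1 (R 4.3.3) was fitted to all 43035 probesets, p-values were adjusted by Benjamini-Hochberg over these, and the procedure was tested on simulated data. Symbols came from the platform annotation (29264 probesets with 1 symbol, 439 with several, 13332 unnamed here), updated through gene IDs. Each gene was represented by the probeset with its highest mean. Correlations used Python 3.11.15 (numpy 2.4.6, scipy 1.17.1, pandas 2.3.3), and plots used matplotlib 3.10.9. Pairs of members were 15, since MAPK3 was not analysed. No columns of sample values were left unused.

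Members and gene lists were chosen with earlier results of these data known. The genes named are all member probesets, up to 3 genes per list with the smallest adjusted p among those called, the 3 genes most similar to each member, and cell type markers, of which single ones were picked as examples after their values were seen. The labels state that RNA was extracted in balanced random batches. These batches were not assigned to samples. Array days came from a list of array files with the study, matched by sample number for 18 DLBCL arrays. Sample 5, listed on more than 1 day, was left without a day, and entries under numbers that the labels do not use, among them possibly the healthy arrays, were not used, so that array days were not compared between tumours and healthy nodes. Alternatives left out samples or dogs, used RIN, dog, array day or sample number as terms, treated the 33 arrays as separate samples, applied the methods' ANOVA, and changed the filter, normalization and probeset rule. The number of arrays limits the precision.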

Additional observations from a re-analysis of the deposited data

Results flagged for a closer look

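Of 24 sets of values tested (12 member probesets in the healthy and in the relapsed dogs, 7 dogs in each), 7 held 1 dog whose gap to its neighbour, as a share of the whole range, passed Dixon's 95% critical value, where chance gives about 1 in 20. In RASGRP1 probeset 1, healthy dog 1 was lowest at 9.03, with the next dog at 10.04. The same dog was lowest in RASGRP2 probeset 2 at 10.86, with the next at 11.43. Healthy dog 4 was lowest in RRAS2 probeset 2 at 8.42, with the next at 8.99. Among the relapsed samples, sample 18 was lowest in RASGRP3 at 6.40, with the next at 8.28, and sample 12 was lowest in BRAF at 9.01, with the next at 9.24. Sample 4 was lowest in both probesets of RRAS2, at 11.55 with the next at 12.87, and at 7.78 with the next at 9.21.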

How the results depend on the processing

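RASGRP1 and RASGRP3, not called in the main fit, were called without sample 5 in DLBCL and in naïve against healthy dogs. In relapsed against healthy dogs RASGRP1 was called without sample 5. RASGRP3 was called there without samples 5 and 18, the lowest DLBCL dogs in RASGRP3, but not without sample 5 alone. Without sample 5 the probesets called higher went from 0 to 3 in DLBCL against healthy dogs, from 0 to 3 in naïve against healthy and from 0 to 1 in relapsed against healthy. Without samples 5 and 18 they were 3, 3 and 2. Of all 43035 probesets, 8637, 8852 and 4832 were called higher in these comparisons without sample 5. Without samples 5 and 18 they were 9174, 9038 and 5785. Without sample 21, chosen after seeing the data, 2 probesets were called lower in relapsed against healthy dogs, beside 3785 of all probesets. With RIN as a covariate the probesets called lower went from 2 to 0 in DLBCL and in naïve samples against healthy dogs, and the pathway genes called from 17 higher and 21 lower to 0 higher and 1 lower. Of all probesets, 500 were then called lower in DLBCL and 667 in naïve samples. Quantile normalization gave 1 probeset called higher in naïve samples, beside 8671 of all probesets. Leaving out 1 healthy dog at a time gave 1 to 2 probesets called lower in DLBCL and in naïve samples, and 0 to 1 called higher in naïve samples, the 1 without healthy dog 7. Of all probesets, 5124 to 5449 were called lower in DLBCL and 5226 to 5509 in naïve samples. Without healthy dog 7, 7299 of all probesets were called higher in naïve samples. With the 33 arrays as separate samples 2 were called higher and 1 lower, beside 11091 and 7449 of all probesets. By the methods' ANOVA, called here by adjusted p alone without the fold change limit of the study, 1 was higher and 1 lower. Beside these, 11190 and 7340 of all probesets were called. Of the relations to marker means, 5 passed over all dogs, 2 without sample 5, 0 without samples 5 and 18, 2 in naïve dogs, 0 in naïve dogs without sample 5, and 0 within the first and 0 within the second array day. RASGRP3 with platelet markers turned to r = 0.06 in naïve dogs without sample 5, and RASGRP3 with B cell markers to r = -0.18 in the second array day. The causes were not tested beyond the samples named. Of the log2 differences of the 6 genes in 4 comparisons under the alternatives, 462 kept their side of the threshold, 14 passed it only there and 4 no longer passed it.

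The sample numbers shared by DLBCL and healthy arrays say nothing of a pairing. Over 9 pairs the deviations of same-numbered arrays correlated at -0.14 to 0.13, and 1 DLBCL array correlated best with its own number. With the sample number as a replicate block 1 probeset was called lower and 0 higher, beside 6149 and 8043 of all probesets. The same arrays without the block gave 1 lower and 1 higher, beside 6477 and 9040 of all probesets.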

Other observations

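DLBCL sample 5 differed from the other DLBCL arrays in markers beside those of B cells. Of the 10 macrophage and monocyte markers, 4 were higher in sample 5 than in every other DLBCL array. The Fc receptor FCGR1A was at 13.49 there, against 4.97 to 10.19 in the others, and the endotoxin receptor CD14 at 11.94, against 8.81 to 10.52. The scavenger receptor CD163 (12.26) and the growth factor receptor CSF1R (9.53) lay just above the highest of the others, 12.21 and 9.28. Of the 3 platelet markers, 2 were highest in sample 5, PPBP at 8.45 against 6.63 to 8.06 and GP9 at 9.10 against 8.11 to 8.89. The T cell markers of sample 5 lay within the range of the other DLBCL arrays for 10 of 11 genes, and the B cell transcription factor PAX5 (6.14 against 5.66 to 6.35) was the only one of the 7 B cell markers within it. Of the members, RASGRP2 (12.82, rank 15 of 22 from the top) and NRAS (8.47, rank 3 of 22) of sample 5 lay among the other DLBCL dogs. BRAF (8.92, rank 21 of 22) was near the bottom, and RASGRP1, RASGRP3 and RRAS2 were lowest.

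DLBCL sample 18, second lowest in RASGRP3, had a B cell marker mean of 10.73, among those of the other tumours, with a macrophage marker mean of 11.27 and the highest stroma and vessel marker mean of 12.20. DLBCL sample 21, lowest in RASGRP2 and highest in NRAS, had the second lowest B cell marker mean (10.16) and the lowest stroma and vessel marker mean (9.27).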
